A study of Mus musculus with 12 samples.

Results

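H4 acetylation along mouse chromosome 7 was described from 6 lists of acetylated histone H4 (H4ac) peaks, 1 for each ChIP-seq library. Every listed peak on chromosome 7 (mm9 build) was taken, and overlapping or touching peaks were joined to union regions. This gave 5056 of the 85369 listed peaks and 1891 of the 31891 union regions. The regions spanned 149 Mb, from position 3275507 to position 152517388. Membership was set by position alone, but the choice was made with earlier results of these data known.

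Acetylation of the histone H4 tail loosens the contact between histones and DNA and is found at active promoters and enhancers. In myoblasts, the muscle precursor cells, such sites include genes of the myogenic program. Mouse chromosome 7 carries several genes known from muscle biology, among them Myod1, which encodes a master regulator of myogenesis, and Igf2 and H19, an imprinted pair of which Igf2 encodes a growth factor secreted by muscle cells. MLX is the dimer partner of MondoA and ChREBP, factors that respond to glucose, and binds DNA together with them. Regions are given here by position and were not assigned to genes.

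The cells were C2C12, an established mouse myoblast line, transduced with lentivirus carrying either MLX-WT or MLX-DN. The labels do not spell out DN. Another label field calls the MLX-DN samples MLX down, and the names of the peaks carry the tag WITHGLUC. There were 3 H4ac libraries per group; 3 input libraries per group are also labelled, whose reads were not analysed here. Whether the transduced cells were a pool or a clone, and whether replicates were separate cultures, is not stated in the labels, so a p-value here speaks only of how these samples spread, perhaps for technical reasons. The empty vector and non-targeting controls that the labels mention were not analysed here. ChIP depth recovered from the lists was 3.30 to 3.90 reads per 250 bp window, and the lists held 5385 to 24811 peaks.

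Chromosome 7 carried more listed H4ac sequence in the cells with MLX-DN, in more and somewhat wider peaks. Replicates 1, 2 and 3 with MLX-DN had 857, 1458 and 962 listed peaks there. Those with MLX-WT had 313, 862 and 604. The groups overlapped, since MLX-WT replicate 2 lay 5 peaks above MLX-DN replicate 1. MLX-DN averaged 1092 ± 321 peaks and MLX-WT averaged 593 ± 275 (SD, n = 3), with 1.95 as the ratio of geometric means (exact permutation test on the log2 scale, two-sided, p = 0.20). With 3 libraries against 3, the exact permutation test cannot go below p = 0.10. Peak number was higher in MLX-DN on all 20 chromosomes, with ratios from 1.62 on chromosome 15 to 2.94 on chromosome X. The ratio on chromosome 7 ranked 13 of 20 from the highest. The whole lists held 15201, 24811 and 16898 peaks with MLX-DN against 5385, 13652 and 9422 with MLX-WT.

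Covered length did not overlap between the groups, unlike peak number. Peaks covered 398, 742 and 456 kb in the 3 MLX-DN replicates and 131, 390 and 255 kb in the 3 with MLX-WT. Every MLX-DN library lay above every MLX-WT library, although MLX-DN replicate 1 and MLX-WT replicate 2 were close. Means were 532 ± 184 kb against 259 ± 129 kb (SD, n = 3). The ratio of geometric means was 2.18 (exact permutation test on the log2 scale, two-sided, p = 0.10, the smallest this design allows). Covered lengths of the other chromosomes are not given here, so whether this difference is particular to chromosome 7 was not tested.

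**Figure D1:**
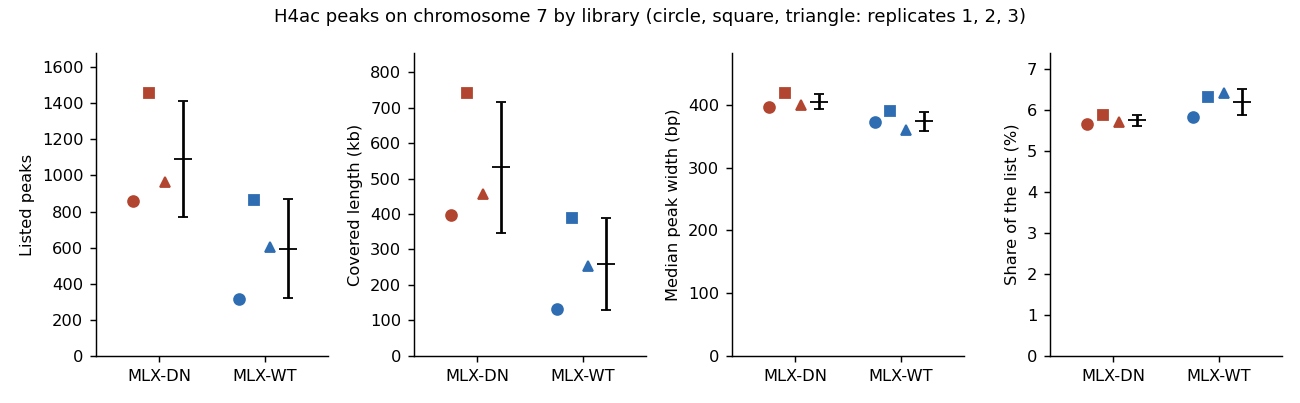
Listed peaks, covered length in kb, median peak width in bp and the share of each library's list in percent on chromosome 7, for MLX-DN (red) and MLX-WT (blue) libraries, with the mean and SD of 3 libraries beside them. Covered length and width did not overlap between the groups, while peak number and share did.

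The median peak on chromosome 7 was 397, 419 and 399 bp wide in the 3 MLX-DN replicates and 373, 389.5 and 359 bp wide in the 3 with MLX-WT. The lowest MLX-DN value exceeded the highest MLX-WT value. The whole lists had medians of 400, 429 and 409 bp and of 365, 402 and 373.5 bp, so relative to its list the chromosome 7 width was 0.982 ± 0.00947 with MLX-DN against 0.984 ± 0.0331 with MLX-WT (SD, n = 3). On chromosome 7 itself the means were 405 ± 12.2 bp and 374 ± 15.3 bp (SD, n = 3; two-sided exact permutation test, p = 0.10). Peaks longer than 1 kb numbered 22, 83 and 41 with MLX-DN against 5, 20 and 13 with MLX-WT. They formed 4.17% ± 1.56 of the chromosome 7 peaks with MLX-DN against 2.02% ± 0.378 with MLX-WT (SD, n = 3; exact p = 0.10). The difference of 2.15 percentage points was 1.39 without MLX-DN replicate 2 and 9.25 at equal list length (exact p = 0.20). In all 6 libraries such long peaks were a smaller share on chromosome 7 than in the whole list. On chromosome 7 they were 2.57%, 5.69% and 4.26% of the MLX-DN peaks and 1.60%, 2.32% and 2.15% of the MLX-WT peaks. In the whole lists they were 4.60%, 7.58% and 5.45% of the MLX-DN peaks and 1.653%, 4.26% and 2.66% of the MLX-WT peaks.

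Measured against its own list, chromosome 7 took a slightly smaller part of the peaks in MLX-DN. It held 5.64%, 5.88% and 5.69% of the MLX-DN lists and 5.81%, 6.31% and 6.41% of the MLX-WT lists. The means were 5.74% ± 0.125 and 6.18% ± 0.321, and MLX-DN replicate 2 lay above MLX-WT replicate 1 (exact permutation test, two-sided, p = 0.20, adjusted p = 0.222 over 20 chromosomes). Across the genome 85.0% of chromosomes had shares that did not overlap between the groups.

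With every list cut back to its 5385 strongest peaks, as many as MLX-WT replicate 1 listed, the direction of peak number on chromosome 7 turned. The MLX-DN lists then held 287, 239 and 255 peaks there, against 313, 312 and 308 in those of MLX-WT. The groups no longer overlapped, and the log2 difference went from 0.96 to -0.26 (exact p = 0.10). The shares at equal length were 4.83% ± 0.454 with MLX-DN against 5.78% ± 0.0491 with MLX-WT (exact p = 0.10, adjusted p = 0.133 over 20 chromosomes), where 75.0% of chromosomes did not overlap. The ratio of these shares, 0.837, ranked 18 of 20 when chromosomes were ordered from the highest ratio down. Chromosome 15 had the lowest, 0.762, and the ratio on chromosome 8 was 1.14. Covered length at equal list length kept its direction, with a log2 difference of 0.19 (exact p = 0.30), and the difference in median width grew from 31.2 to 165 bp (exact p = 0.10). Widths over the whole cut lists are not given here, so whether this growth is particular to chromosome 7 was not tested.

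Peaks on chromosome 7 stood on a lower control background than peaks elsewhere, in both groups. The fold of a peak, as the authors' caller gave it, is the scaled ChIP pileup over this background, with 1 added to each. The scale factor ran from 0.848 in MLX-DN replicate 2 to 1 in MLX-WT replicate 3, and ChIP reads are printed here unscaled. Fold and p-value together return the background in reads per 250 bp. The median background on chromosome 7 was 6.0, 4.75 and 6.5 reads in the 3 MLX-DN replicates and 6.25, 5.0 and 5.66 reads in the 3 with MLX-WT. The whole lists had medians of 7.5, 6.0 and 8.0 reads and of 8.0, 6.5 and 6.89 reads. Relative to the list the level was 0.801 ± 0.0105 with MLX-DN against 0.791 ± 0.0273 with MLX-WT (SD, n = 3). It was the lowest of the 20 chromosomes in 4 libraries and the second lowest in MLX-DN replicates 1 and 3.

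The authors' fold was high on chromosome 7. Its median on chromosome 7 was 3.99, 4.14 and 3.88 in the 3 MLX-DN replicates and 4.01, 4.21 and 3.93 in the 3 with MLX-WT. These values were 1.04 to 1.07 times the list medians, and the highest of the 20 chromosomes in all 3 MLX-DN libraries and MLX-WT replicate 2. Chromosome 7 ranked 2 in MLX-WT replicate 1 and 3 in MLX-WT replicate 3. The middle part of the peaks, from the first to the third quartile, had folds of 3.30 to 4.503 in MLX-DN replicate 3, the library with the lowest median, and of 3.66 to 4.97 in MLX-WT replicate 2, the library with the highest. The ChIP reads at the summit were fewer than elsewhere, with medians of 28, 27 and 30 in MLX-DN where the lists had 33, 31 and 35, and of 32, 28 and 25 in MLX-WT where the lists had 36, 31 and 29. In every library the higher fold thus went with fewer ChIP reads over a lower background.

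**Figure D2:**
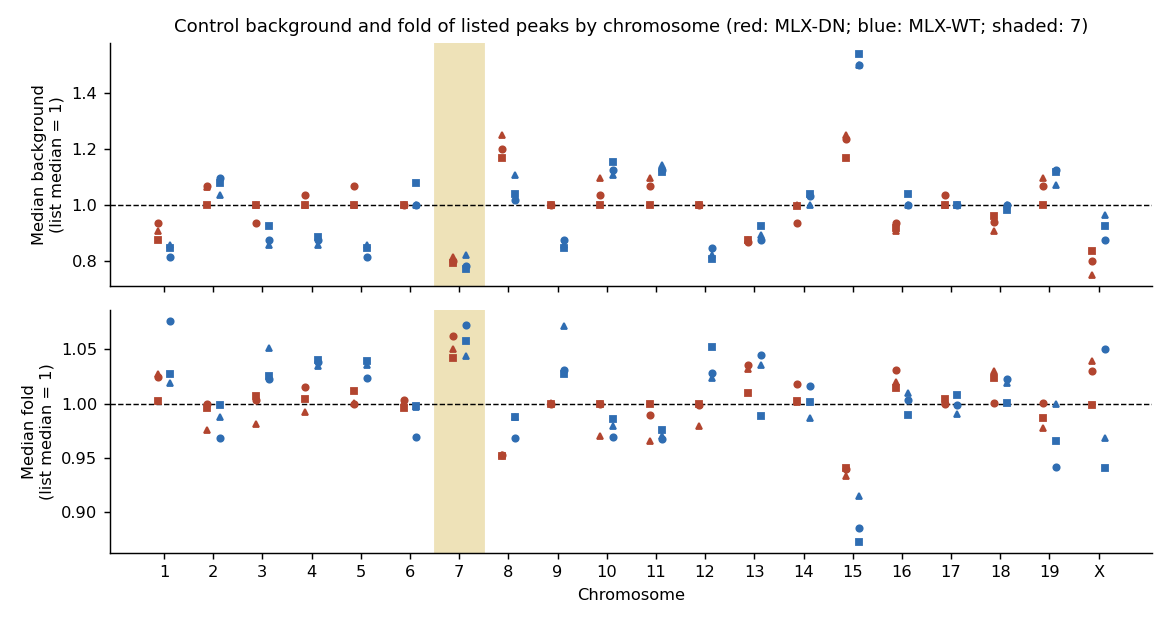
Median control background (top) and median fold (bottom) of the listed peaks on each chromosome, relative to the median of the whole list, for each MLX-DN (red) and MLX-WT (blue) library. Chromosome 7, shaded, has background values between 0.769 and 0.821 and fold values between 1.04 and 1.07 in all 6 libraries.

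Some peaks lay on the lowest background found in their list, the level taken as the genome-wide control level. On chromosome 7 they made up 5.13%, 18.5% and 6.13% of the peaks with MLX-DN against 1.60%, 12.3% and 4.30% with MLX-WT. The whole lists had 3.09%, 5.78% and 2.94% and 1.73%, 4.88% and 2.76%, so the share was higher on chromosome 7 in 5 of 6 libraries, the exception being MLX-WT replicate 1. Replicate 2 stood out in both groups.

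Background levels of the groups overlapped on chromosome 7. At the 177 chromosome 7 regions that every library listed, the level was taken relative to the mean of that library over all such regions of the genome. It was 0.755, 0.792 and 0.765 with MLX-DN against 0.760, 0.802 and 0.829 with MLX-WT. The ranges overlapped, with means of 0.770 ± 0.0189 and 0.797 ± 0.0346 (SD, n = 3; two-sided exact permutation test, p = 0.30, adjusted p = 0.316 over 20 chromosomes). Across the genome 80.0% of chromosomes did not overlap between the groups in this measure. On chromosome 8 the ratio of MLX-DN to MLX-WT was 1.25 and on chromosome 15 it was 0.795, against 0.967 on chromosome 7.

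ChIP reads at these same 177 regions were higher in MLX-DN, while their folds overlapped between the groups. Divided by the depth of the library, the median summit held 12.3, 11.8 and 12.4 times the depth in the 3 MLX-DN replicates and 10.4, 10.4 and 9.70 times in the 3 with MLX-WT. No MLX-DN library reached down to the MLX-WT values, and the means were 12.2 ± 0.321 and 10.2 ± 0.408 (SD, n = 3; two-sided exact permutation test, p = 0.10). At the 2930 shared regions of the other chromosomes they were 14.9 ± 0.278 and 11.6 ± 0.375. The chromosome 7 median was thus 0.820, 0.807 and 0.818 of that elsewhere with MLX-DN against 0.900, 0.870 and 0.865 with MLX-WT. Chromosome 7 stood lower against the rest in every MLX-DN library than in every MLX-WT library, at 0.815 ± 0.00703 against 0.878 ± 0.0191 (exact p = 0.10, adjusted p = 0.154 over 20 chromosomes), where 65.0% of chromosomes did not overlap. The shared regions were wider in MLX-DN as well, with median peak widths of 605, 739 and 601 bp against 424, 591 and 485 bp in MLX-WT (exact p = 0.10). These averaged 648 and 500 bp. At the shared regions of the other chromosomes the means were 673 ± 100 and 515 ± 105 bp (SD, n = 3, two-sided exact permutation test, p = 0.20). The median fold at the 177 regions was 4.70, 5.40 and 4.45 with MLX-DN against 4.23, 5.21 and 4.34 with MLX-WT. Its means were 4.85 ± 0.491 and 4.59 ± 0.534 (SD, n = 3, two-sided exact permutation test, p = 0.50). Background at these regions averaged 7.78 ± 1.07 reads per 250 bp with MLX-DN against 6.82 ± 0.271 with MLX-WT (exact p = 0.30).

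Regions were unevenly spread along the chromosome. In 31 bins of 5 Mb, counted from the start of the chromosome, the median was 47 regions, and the 5 richest bins held 38.3% of all regions. The bin from 25 to 30 Mb held most, with 194 regions, followed by 115 to 120 Mb with 148 and 50 to 55 Mb with 144. In the first of these 73, 141 and 79 peaks were listed with MLX-DN, against 19, 76 and 48 with MLX-WT. From 40 to 45 Mb no library listed a peak, from 60 to 65 Mb there were 3 regions, and from 45 to 50 Mb there were 4. The bin from 60 to 65 Mb had 3, 4 and 3 peaks with MLX-DN against 2, 3 and 1 with MLX-WT, so that no library listed more than 4 there.

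The longest stretch without a region ran over 7.76 Mb, at chr7:39012808-46772519. The next were chr7:20541590-24867026, of 4.33 Mb, and chr7:59169963-63096953, of 3.93 Mb. In all, 31 gaps between neighbouring regions were longer than 1 Mb, while 44.2% of gaps were shorter than 5 kb, against 45.5% over the genome. The median gap was 8612.5 bp, and the chromosome held 12.7 regions per Mb of its span, against 12.5 over the genome, 13.8 on chromosome 8, 18.6 on chromosome 15 and 23.4 on chromosome 11.

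**Figure D3:**
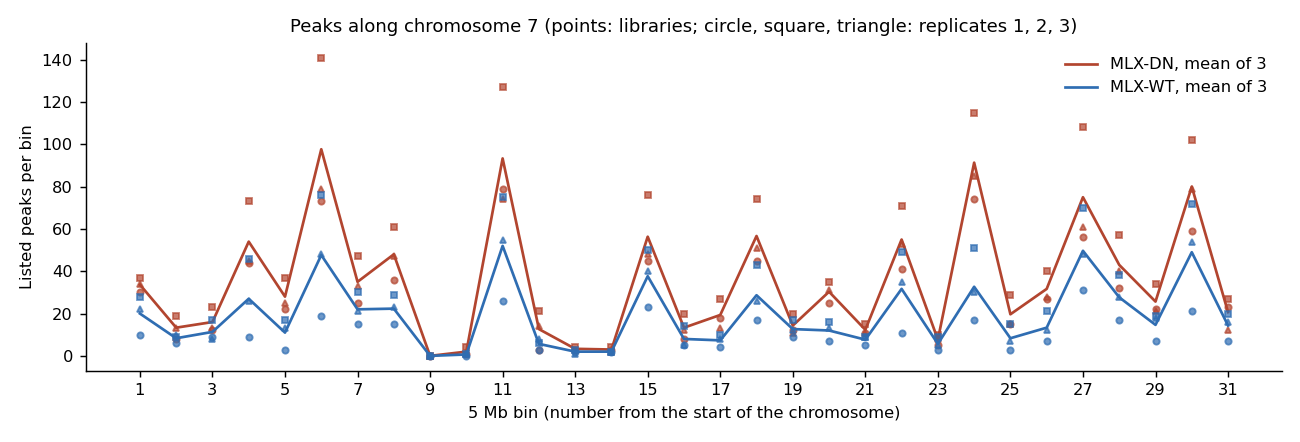
Listed peaks in each 5 Mb bin of chromosome 7, with bins numbered from the start of the chromosome, for each library (points) and as the mean of the MLX-DN (red) and MLX-WT (blue) libraries (lines). The MLX-DN line is highest at bins 6, 11 and 24 and the MLX-WT line at bins 11, 27 and 30, and both drop to 0 at bin 9.

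Both groups followed the same outline. Mean peak numbers per bin correlated between the groups across the 31 bins (Pearson r = 0.955, Spearman rho = 0.967; a description across bins, since bins of a library share its depth). The MLX-DN mean was higher in all 30 bins with a peak. In 10 of these 30 bins (33.3%) every MLX-DN library listed more peaks than every MLX-WT library, and over the genome this held for 51.2% of bins with a peak.

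Relative to list length, 5 of the 27 bins with enough peaks differed between the groups, 1 of them higher in MLX-DN and the other 4 higher in MLX-WT. Peaks per 1000 listed peaks were compared on the log2 scale, with a pseudocount of 0.5 peak, by limma over the 434 bins of the genome with a mean of at least 5 peaks per library. Over the genome the same fit called 28.1% of bins, 15.0% as higher in MLX-DN and 13.1% as higher in MLX-WT. On chromosome 7 it called 18.5%, and whether that share differs from the genome's was not tested. The median log2 difference on chromosome 7 was -0.22, against -0.04 over all tested bins.

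The share of peaks in the bin from 115 to 120 Mb was higher in MLX-DN. It held 74, 115 and 85 peaks with MLX-DN against 17, 51 and 30 with MLX-WT. Per 1000 listed peaks this was 4.87, 4.64 and 5.03 against 3.16, 3.74 and 3.18. The groups did not overlap on either scale, and the log2 difference in share was 0.51 ± 0.10 (SE; limma, adjusted p = 0.00429). This bin also held 13 of the 76 regions found in every MLX-DN list but in no list of the other group, or 8.78% of its 148 regions. The share was higher in 3 other bins, at 13.7% from 95 to 100 Mb, 9.80% from 0 to 5 Mb and 9.30% from 20 to 25 Mb.

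Between 130 and 140 Mb, in the last part of the chromosome, the share of peaks was lower in MLX-DN. From 130 to 135 Mb the libraries listed 56, 108 and 61 peaks with MLX-DN against 31, 70 and 48 with MLX-WT, or 3.68, 4.35 and 3.61 against 5.76, 5.13 and 5.09 per 1000 listed peaks. The log2 difference in share was -0.46 ± 0.11 (SE; limma, adjusted p = 0.00666). Of its 120 regions, 17 were in all 6 lists and 0 had a peak in each MLX-DN list alone. From 135 to 140 Mb the difference was -0.41 ± 0.12 (adjusted p = 0.0254), with 32, 57 and 40 peaks with MLX-DN against 17, 38 and 28 with MLX-WT. This call was lost without MLX-DN replicate 1, 2 or 3 (adjusted p = 0.0960, 0.0637 and 0.0657) and without MLX-WT replicate 3 (adjusted p = 0.0585), where the differences were -0.36, -0.42, -0.44 and -0.41.

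The bin from 90 to 95 Mb had the largest difference among the 27 tested bins of chromosome 7. It held 12, 20 and 11 peaks with MLX-DN against 9, 17 and 12 with MLX-WT, so that peak numbers were close although the MLX-DN lists were longer. Per 1000 listed peaks these were 0.789, 0.806 and 0.651 against 1.67, 1.25 and 1.27, with no overlap. The log2 difference was -0.90 ± 0.20 (SE, limma, adjusted p = 0.00548). With bins shifted by 2.5 Mb, or of 10 Mb, no called bin overlapped 90 to 95 Mb. In the shifted bins the largest called difference was 1.03, from 122.5 to 127.5 Mb, higher in MLX-DN (limma, adjusted p = 0.0181). From 70 to 75 Mb the libraries listed 45, 76 and 48 peaks with MLX-DN against 23, 50 and 40 with MLX-WT, a difference in share of -0.46 ± 0.11 (adjusted p = 0.00793).

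**Figure D4:**
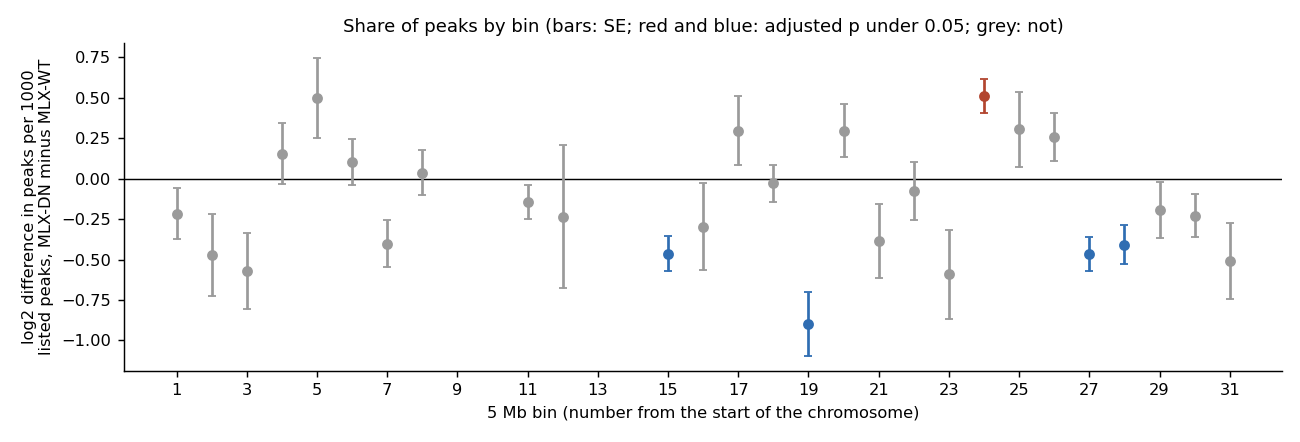
The log2 difference in peaks per 1000 listed peaks, MLX-DN minus MLX-WT, with its SE, in the 27 tested bins of chromosome 7, numbered from the start of the chromosome. The bin in red (24) has a higher share in MLX-DN and the 4 in blue (15, 19, 27 and 28) a higher share in MLX-WT, at an adjusted p under 0.05 by limma.

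The calls changed when the weaker peaks of the lists were left out. At equal list length none of the 5 passed: the bin from 115 to 120 Mb went to -0.03 (adjusted p = 0.883), the bins from 70 to 75, 130 to 135 and 135 to 140 Mb had differences of -0.69, -0.39 and -0.51 (adjusted p = 0.117, 0.0652 and 0.129), that from 90 to 95 Mb held too few peaks, and 1 other bin, from 140 to 145 Mb, was called instead (log2 difference -1.08, adjusted p = 0.0337). With a −log10 q of at least 5, the bins from 70 to 75, 90 to 95 and 115 to 120 Mb did not pass (adjusted p = 0.179, 0.172 and 0.0791). Those from 130 to 135 and 135 to 140 Mb still passed at this setting (limma, adjusted p = 0.0126 and 0.0168). The bins from 10 to 15 and 140 to 145 Mb were called as well (log2 differences -0.84 and -0.71, limma, adjusted p = 0.0264 for each). Without MLX-WT replicate 1 the 5 called bins became 8.

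The control background was low in every bin of the chromosome where it was assessed, rather than in 1 part of it. The other bins held too few shared regions. In all 21 bins with at least 3 regions listed by all 6 libraries, the mean over the libraries was below the library mean of the genome, and in 18 of them it was below it in each library. The bin means ran from 0.674 from 70 to 75 Mb and 0.704 from 30 to 35 Mb up to 0.896 from 105 to 110 Mb and 0.934 from 5 to 10 Mb. In the lowest of these bins the values were 0.621, 0.714 and 0.573 with MLX-DN against 0.750, 0.652 and 0.736 with MLX-WT, which overlap. In the highest they were 1.01, 0.892 and 0.873 and 0.960, 0.951 and 0.916. The number of regions in a bin and its background were nearly unrelated (Pearson r = -0.0993, Spearman rho = -0.104 over 21 bins, as a description).

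In 1 of the 21 bins, from 90 to 95 Mb, the background differed between the groups. At this bin placement that bin also had the largest difference in peak share. Its background was 0.747, 0.781 and 0.659 times that mean with MLX-DN against 0.904, 1.02 and 0.894 with MLX-WT, from 4 shared regions. The log2 difference was -0.37 (limma over 329 bins of the genome, adjusted p = 0.0337). Over the genome 14.6% of bins were called. The part of the background in the lower peak share of that bin was not tested. The call was lost when any 1 library except MLX-WT replicate 3 was left out (adjusted p = 0.0643 to 0.256), and without MLX-WT replicate 1 the difference was -0.23. Over all listed peaks of the bin, in place of shared regions, it was -0.12 (adjusted p = 0.311). In the other 4 bins called for peak share the background did not pass (adjusted p = 0.193 to 0.987), although from 135 to 140 Mb it was 0.843, 0.821 and 0.911 with MLX-DN against 0.770, 0.769 and 0.767 with MLX-WT, the higher side being MLX-DN.

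**Figure D5:**
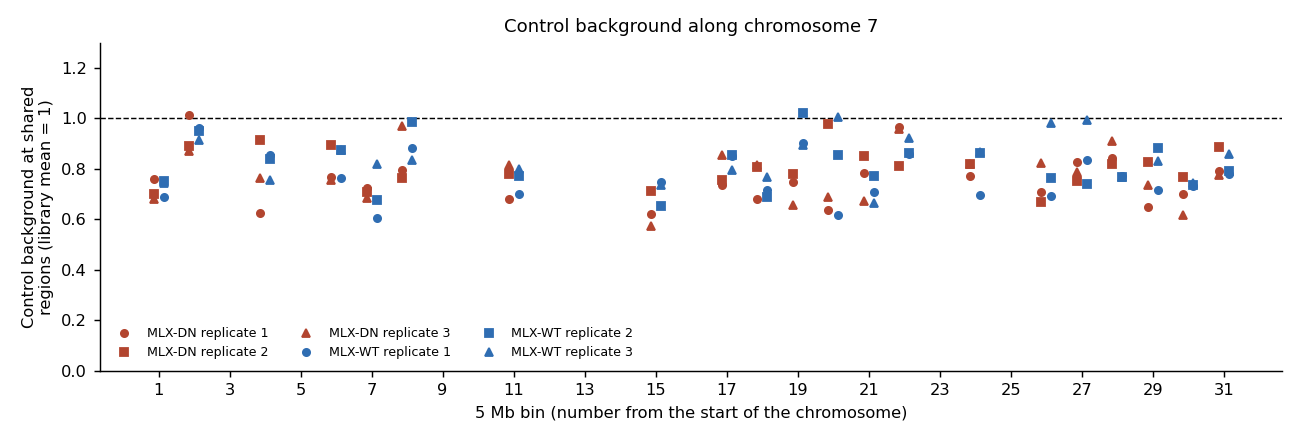
Mean control background at regions listed by all 6 libraries, relative to the library mean over the genome (dashed line at 1), in the 21 bins of chromosome 7 with at least 3 such regions, numbered from the start of the chromosome. Nearly all points lie below the line, and MLX-DN (red) and MLX-WT (blue) points do not overlap at bins 19 and 28.

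Most regions were listed by few libraries, and those listed by more were wider. Of the 1891 regions, 795 (42.0%) were in a single list, with a median width of 309 bp, and 414 of these came from MLX-DN replicate 2, the longest list. The median width was 479, 567, 654 and 789 bp for regions in 2, 3, 4 and 5 lists. The 177 regions in all 6 lists (9.36%, against 9.74% over the genome) had a median width of 967 bp, and 45.8% of them were wider than 1 kb. A merged region is at least as wide as its widest peak, so width can grow with the number of lists by construction. The 177 became 273 without MLX-WT replicate 1, the shortest list.

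A peak in 2 or more replicates was found at 907 regions with MLX-DN and at 479 with MLX-WT. Both groups shared 413 of them. These made up 86.2% of those found with MLX-WT (exact 95% binomial interval 82.8 to 89.2) but 45.5% of those found with MLX-DN (42.3 to 48.8); both intervals cover counting error only. The whole-genome values were 87.8% and 42.7%. Leaving out MLX-WT replicate 2 gave 214 in place of 413, and leaving out MLX-WT replicate 3 gave 246. Both remaining MLX-WT replicates then had to list a region, so the count falls by construction. By the Jaccard index, pairs of libraries resembled each other most within MLX-DN. The Jaccard index on chromosome 7, shared over total covered bases, averaged 0.365 ± 0.0104 within MLX-DN and 0.285 ± 0.0356 within MLX-WT (SD over 3 pairs each), and 0.263 ± 0.0640 over the 9 pairs between groups. Single pairs between groups reached 0.332 and so exceeded every pair within MLX-WT. The index is limited where lists differ in covered length. For replicates 1 and 2, 1 and 3, and 2 and 3, the shorter list lay within the longer to 75.2%, 58.7% and 70.0% with MLX-DN. With MLX-WT these values were 80.7%, 63.8% and 62.0%, so by this measure the groups overlapped. Between the groups it ran from 50.3%, for MLX-WT replicate 2 in MLX-DN replicate 1, to 86.0%, for MLX-WT replicate 1 in MLX-DN replicate 2. The latter was above every pair within a group.

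The 5 shared regions highest in rank, by the lowest percentile of their −log10 q in any of the 6 lists, lay in 5 different bins. The first, chr7:52124475-52125126, was 652 bp wide and had a lowest percentile of 97.6. Its summit held 61, 102 and 96 ChIP reads with MLX-DN against 68, 69 and 56 with MLX-WT, with folds of 7.06, 9.72 and 8.13 and of 6.23, 9.34 and 6.42. Neither the reads nor the folds of this region separated the groups. The second, chr7:74516779-74518927, was 2149 bp wide, with 75, 70 and 76 reads in MLX-DN against 54, 57 and 49 in MLX-WT. Every MLX-DN library was above every MLX-WT library there in reads, but the folds ran the other way for 2 MLX-DN libraries, at 7.93, 6.04 and 6.46 against 6.63, 9.03 and 7.24. The third, chr7:16985375-16987972, reached the most reads of the named regions, 79, 102 and 104 with MLX-DN against 66, 70 and 71 with MLX-WT, again without overlap. The other 2 were chr7:25669618-25670245 and chr7:87546651-87548486, with folds of 5.35 to 8.50 and 5.20 to 10.3.

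The third of these was also the second widest region listed by all 6 libraries, at 2598 bp. The widest was chr7:133606318-133609176, of 2859 bp, whose summit held 48, 60 and 57 ChIP reads with MLX-DN against 40, 43 and 42 with MLX-WT. Single peaks within it were 399 to 2229 bp wide. The third widest, chr7:149614836-149617412, was 2577 bp wide and weak, with folds of 3.53 to 4.54 and 22 to 33 reads.

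In 76 regions a peak was listed in each MLX-DN replicate but in none with MLX-WT, 4.02% of the chromosome 7 regions (exact 95% binomial interval 3.179 to 5.005), against 6.10% over the genome. Among the 479 regions with a peak in each MLX-DN list, 15.9% were in no MLX-WT list, against 21.3% over the genome. The 76 regions had a median width of 648.5 bp and folds of 2.19 to 8.0, lay in 22 bins, and stood at a median percentile of 42.2 in the MLX-DN lists. None reached the upper quartile of all 3 MLX-DN lists, and 19 of them (25.0%) had a peak of some MLX-WT list at most 1 kb away. The count became 172, 157 and 151 without MLX-DN replicate 1, MLX-DN replicate 3 and MLX-WT replicate 2, and 7 at equal list length.

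The strongest of the 76, chr7:54306054-54306818, had a lowest percentile of 61.0 and summits of 26, 33 and 30 ChIP reads over backgrounds of 3.73, 3.75 and 5.5, with folds of 5.37, 6.10 and 4.41. No MLX-WT peak lay within 1 kb. The next, chr7:36532629-36533354, held 35, 40 and 39 reads, also with no MLX-WT peak within 1 kb. An MLX-WT peak did lie within 1 kb of chr7:128850510-128850945, with folds of 3.61 to 4.72, and of chr7:107755394-107755818, with folds of 4.09 to 5.87. The last of the 5, chr7:97198722-97199288, had low backgrounds of 3.25, 3.31 and 3.34 reads, close to the genome-wide control level of each library, and folds of 5.09, 5.75 and 5.33.

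The opposite pattern, a peak in each MLX-WT replicate and in none with MLX-DN, held for 5 regions, 0.264% of the chromosome 7 regions (exact 95% binomial interval 0.0859 to 0.616), against 0.166% over the genome. They lay in 5 different bins. The strongest, chr7:108092081-108093023, was 943 bp wide, with summits of 34, 36 and 30 ChIP reads and folds of 5.11, 4.32 and 5.87. It was followed by chr7:74587659-74588124, with 34, 34 and 47 reads and an MLX-DN peak within 1 kb. The other 3 were weak in their lists, with lowest percentiles of 22.3, 13.1 and 10.7, at chr7:52112714-52113059, chr7:120027916-120028357 and chr7:38968333-38968877. The first of these 3 shared its bin with the strongest shared region, and the second lay just beyond the bin whose share was higher in MLX-DN. The count of 5 became 23, 10 and 9 without MLX-WT replicate 1, MLX-WT replicate 3 and MLX-DN replicate 2. At equal list length it became 12, and the regions of every MLX-DN list alone became 7. Genome shares at that length are not given here, so whether this order is particular to chromosome 7 was not tested.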

How the data were processed

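H4ac ChIP-seq was analysed from 1 peak list per library, so peaks were called per sample. The submitters' processing notes name MACS2 2.0.9 (a peak caller), BWA 0.5.9-r26 (an aligner), Picard 1.65 and the mm9 build, without their settings. The deposited columns used were the fold, a ratio of ChIP to background, the −log10 p and the −log10 q. The score the authors deposited is the whole part of 10 times that −log10 q and was not tested. The deposited fold and −log10 p gave the ChIP reads, the library's scale factor and the control background (matched within 0.001 for 100% of peaks). These intervals and counts cover counting error only; total reads are unknown.

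Samples were grouped by title. Single values were compared by exact permutation tests over 20 assignments (Python 3.11.15, scipy 1.17.1) and 5 Mb bins by limma 3.58.1 (R 4.3.3) with Benjamini-Hochberg adjustment over all genome bins; the recovery and the limma fit were tested on simulated data. Alternatives tried were a minimum −log10 q of 5, equal list length, 50% cover, joining within 500 bp, other bins, filters and pseudocounts, each library left out, and the replicate block. Named regions were the 5 highest by lowest within-list percentile of −log10 q among shared regions and in each direction, the 3 widest shared regions and the 3 longest empty stretches; named bins were those called, the 3 richest and poorest, and the 2 with highest and lowest background. The members and lists were chosen with earlier results of these data known. No mm9 annotation or genome was used, so no region was assigned to a gene.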

Additional observations from a re-analysis of the deposited data

How the results depend on the processing

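Among peak number, covered length, share, width, long peaks and background of the whole chromosome, peak number reversed at equal list length (log2 difference -0.26) and the other alternatives run kept the direction; 3 libraries against 3 cannot pass 0.05. With each library left out in turn the log2 difference of peak number was 0.56 to 1.29 and that of covered length 0.70 to 1.49. The replicate block gave the same differences as without it (log2 0.96 for peak number and 1.12 for covered length; exact sign-flip test, p = 0.25, the smallest 3 pairs allow). Same-numbered deviations of bin shares correlated at 0.0642, 0.119 and 0.0372, so the numbers were not taken as pairs, although each library correlated best with its own number. The 5 bins called for peak share became 9 with the block and 9 with a pseudocount of 2 peaks. In bins of 10 Mb 3 were called, and in bins shifted by 2.5 Mb 4 were called. At equal list length the number was 1, and with a library left out it was 4 to 8. The bin from 115 to 120 Mb reversed to -0.033 at equal list length. The 1 bin called for background became 0 with at least 5 shared regions per bin, with all listed peaks and in bins shifted by 2.5 Mb (limma; 1, 5 and 2 bins at an unadjusted p under 0.05), and 0 to 1 with a library left out. The 76 regions with a peak in each MLX-DN list alone became 43 with a minimum −log10 q of 5, 7 when lists had equal length and 80 to 172 with a library left out; the 5 regions of the opposite pattern became 3, 12 and 5 to 23. The 413 regions found in 2 or more replicates of each group became 256, 143 and 214 to 363, and 226 if a peak had to span 50% of its region. The 177 regions of every list became 102, 57 and 175 to 273, and 57 under that span. Fewer peaks or libraries enter in most of these, which moves counts by construction. The cause of the other moves was not tested. The fewest ChIP reads at a listed summit were 13, 14 and 13 with MLX-DN and 16, 14 and 13 with MLX-WT, so the limit differed between libraries. Acetylation below it could not be seen here, and the limit at a site also depends on its background.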
